A study of Mus musculus with 18 samples.

Results

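Gene expression in regulatory T cells (Tregs) sorted from injured skull bone was compared with that in Tregs of uninjured spleen, by bulk RNA sequencing. The comparison used 9 of the series' 18 libraries, 3 of bone and 6 of spleen, chosen by tissue and treatment. The choice was made with earlier results of these data known. Bone Tregs came from mice with a calvarial bone defect, a hole in the flat bone of the skull, and were taken on day 7 after the injury, each library from a pool of 3 mice. Spleen Tregs came from uninjured mice, for which pooling is not stated. All mice were male, 10 weeks old and of the strain Foxp3(DTR/GFP), in which cells that express Foxp3 carry a diphtheria toxin receptor and a green fluorescent protein, so that bone and spleen groups share this allele. Neither uninjured bone nor the spleens of injured mice were analysed here, so that injury and tissue cannot be told apart. In what follows, rose and fell mean higher and lower in bone than in spleen.

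Tregs are CD4 T cells that depend on the transcription factor Foxp3 and restrain other immune cells through surface receptors such as CTLA-4, consumption of interleukin-2 and secretion of interleukin-10. In damaged tissue they take on an effector state, respond to the alarm cytokine interleukin-33 through its receptor ST2 (encoded by Il1rl1), and release growth factors such as amphiregulin. Bone is rebuilt by osteoblasts and resorbed by osteoclasts, which need the ligand RANKL (Tnfsf11) and the growth factor CSF1, and T cells can act on both through cytokines and surface ligands.

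Counts per library summed to 11588253 to 22635760 in bone and to 5970346 to 15756884 in spleen. The spleen libraries carried 2 styles of name: replicates 1 to 3 one style, with at most 7230842 counts, and replicates 4 to 6 the style of the bone libraries, with at least 13873680. Naming style was a term of the model, so each fold change against spleen rests on replicates 4 to 6, while levels are given for all 6. Levels are CPM after TMM scaling, a count scaled to its library's size, and they are compared for 1 gene between samples, never between genes. Bone libraries are numbered 1 to 3 by their names, since the labels tie only the first to a replicate number. Small noncoding RNA took 0.843% to 1.03% of counts in bone, 4.71% to 7.40% in spleen replicates 4 to 6 and 1.63% to 3.06% in replicates 1 to 3. Mitochondrial genes took 4.25% to 4.51% in bone and 4.93% to 7.97% in spleen, and ribosomal RNA 3.16% and 2.30% in spleen replicates 1 and 2, against at most 0.0774% in bone.

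Of 15617 genes tested, 2312 (14.8%) differed between bone and spleen Tregs at an adjusted p under 0.05 (edgeR's quasi-likelihood test, Benjamini-Hochberg), 1325 higher in bone (8.48%) and 987 lower (6.32%). The median log2 fold change was 1.17 among the genes that rose and -1.11 among those that fell, and 0.01 over all genes tested. Changes over 8-fold were seen for 227 genes that rose and 142 that fell. In bulk samples a different share of cells and a different RNA level per cell cannot be told apart. For 3220 genes (20.6%) the bone and spleen libraries did not overlap, 11.6% with bone higher and 8.97% with bone lower, and 4226 genes (27.1%) had an unadjusted p under 0.05. Among 10855 protein-coding genes 1100 rose and 589 fell, while of 160 small nucleolar RNA genes 77 fell and 0 rose. Of 1137 processed pseudogenes, copies of messenger RNA without introns that can share reads with their parent genes, 22 rose and 162 fell. The share of counts from small noncoding RNA moved with these groups, as given above, and its part in them was not tested.

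The sorted cells carried the genes that define Tregs. Foxp3 stood at 767, 729 and 752 CPM in bone libraries 1, 2 and 3, against 350.5 to 450.0 CPM (median 413) in spleen, and all 3 bone libraries lay above the 6 spleen libraries. Transcripts of Ctla4 reached 1054, 789 and 770.0 CPM in bone and 223 to 410.5 CPM (median 348) in spleen, again without overlap. Their log2 fold change was 1.13 ± 0.16 (approximate SE, adjusted p = 1.7e-05). Cd4 and the T cell receptor subunit gene Cd3e, in contrast, overlapped between the groups, Cd4 with 654, 553 and 609 CPM in bone and 459 to 709 CPM (median 536) in spleen. Of 15 Treg identity genes 8 rose and 2 fell, with a median log2 fold change of 0.47. Those that rose included the glucocorticoid-induced TNF receptor gene Tnfrsf18 and the actin-capping gene Capg, and those that fell were Gpr83, a G protein-coupled receptor gene, and Izumo1r, which encodes folate receptor 4. Helios (Ikzf2) rose least among the 8 (0.47 ± 0.14, adjusted p = 0.025), a call lost on leaving out each bone library in turn, or spleen replicate 4 or 5 (adjusted p of up to 0.11).

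The largest increases among well-measured protein-coding genes joined a nuclear scaffold gene, a cytotoxic protease, receptors for chemokines and for interleukin-33, and lipid and lysosomal genes. Well-measured means a log2 CPM averaging 3 or more, with no overlap between the groups. Some genes outside these limits had larger fold changes. Lmna (chromosome 3, 88480147 to 88509956, GRCm38), which encodes lamins A and C of the nuclear envelope, stood at 478, 419 and 253 CPM in bone libraries 1, 2 and 3 and at 4.7 to 14.7 CPM (median 11.1) in spleen. Even the lowest bone library was far above the highest spleen library, and the log2 fold change was 5.29 ± 0.37 (adjusted p = 4.4e-07). For Gzmb (chromosome 14, 56258838 to 56262260), the protease granzyme B, bone held 374, 266 and 238 CPM and spleen 7.37 to 27.2 CPM (median 11.1), with a log2 fold change of 4.89 ± 0.53 (adjusted p = 6.5e-05). The interleukin-33 receptor gene Il1rl1 (chromosome 1, 40429570 to 40465415) reached 739, 604 and 614 CPM in bone, against 46.2 to 82.7 CPM (median 48.9) in spleen. Its spleen replicates 4 to 6 were almost equal, at 46.3, 46.2 and 46.6 CPM, and its fold change had a small error (3.81 ± 0.19 on the log2 scale, adjusted p = 9.3e-12). Slc15a3, a peptide and histidine transporter of the lysosome, rose 15.6-fold, and Dgat1, an enzyme that completes triglyceride synthesis, 10.8-fold. Lgals3, which encodes the sugar-binding protein galectin-3, had 44.8, 32.3 and 33.4 CPM in bone and 2.56 to 10.3 CPM (median 4.16) in spleen. Myadm, a membrane scaffold gene, rose 13.7-fold, and Fam129b, an adhesion-associated gene, 9.44-fold. Ctla2a, a cysteine protease inhibitor gene, rose 13.6-fold, but its reads can be shared with the close copy Ctla2b and its value is uncertain. Bone library 3 was the lowest of the 3 for Lmna, Gzmb, Cxcr6, Slc15a3, Ccr2, Myadm and Dgat1, and this library also had the fewest counts in bone.

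**Figure D1:**
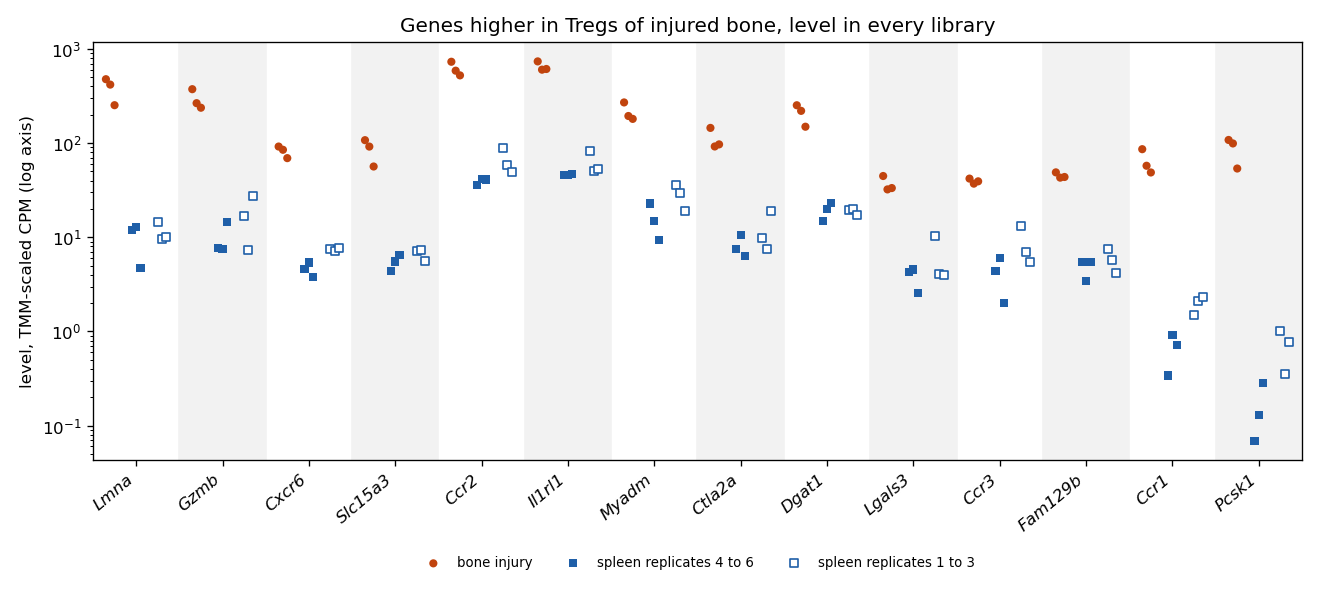
Level of the 12 highest well-measured genes, and of Ccr1 and Pcsk1, in every bone and spleen library, as TMM-scaled CPM on a log axis. Each point is 1 library, orange circles for bone (n = 3), filled squares for spleen replicates 4 to 6 and open squares for replicates 1 to 3. For each of the 14 genes the 3 bone libraries lie above all 6 spleen libraries.

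Of the 12 highest well-measured genes, 9 had a promoter entry in the RefSeq table (GRCm38.p6). An entry covers 250 bases before to 50 after a transcription start. The heptamer TGANTCA, the core of the site bound by AP-1 factors, was present in at least 1 window of 4 of these 9 genes (44.4%), and in 0 of 9 of the 12 lowest. Over all 8151 tested protein-coding genes with an entry the share was 5.9%, among the genes that rose 9.07% of 816, and among those that fell 5.65% of 425. An NF-kB site was found in 2 of the 9 highest genes (22.2%), 0 of the 9 lowest and 1.79% of all. The windows of the 4 genes with TGANTCA are printed to show where it lies, with the match in capitals. Pcsk1, described with the proteases further on, is added because its window holds a full cyclic AMP response element, TGACGTCA, a motif found in 3.77% of all these genes and 3.68% of those that rose. Motifs were searched on both strands, and TGANTCA and TGACGTCA cannot overlap each other. Lmna is shown for chr3:88503303-88503602, minus strand, 1 of its 2 windows and the one with the match, which begins at base 40 after the start. Gzmb covers chr14:56262285-56262584, minus strand, with the match at -58, Ctla2a chr13:60936517-60936816, minus strand, at -188, and Ccr3 chr9:124021721-124022020, plus strand, at -144. Pcsk1 covers chr13:75089607-75089906, plus strand, with the match at -78. A match is only a description of these letters.
Lmna: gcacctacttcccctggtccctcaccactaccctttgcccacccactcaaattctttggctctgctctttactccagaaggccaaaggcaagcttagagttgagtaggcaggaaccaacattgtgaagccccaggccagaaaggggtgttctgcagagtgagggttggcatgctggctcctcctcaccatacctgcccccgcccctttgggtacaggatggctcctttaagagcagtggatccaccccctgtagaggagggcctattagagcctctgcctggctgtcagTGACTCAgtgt
Gzmb: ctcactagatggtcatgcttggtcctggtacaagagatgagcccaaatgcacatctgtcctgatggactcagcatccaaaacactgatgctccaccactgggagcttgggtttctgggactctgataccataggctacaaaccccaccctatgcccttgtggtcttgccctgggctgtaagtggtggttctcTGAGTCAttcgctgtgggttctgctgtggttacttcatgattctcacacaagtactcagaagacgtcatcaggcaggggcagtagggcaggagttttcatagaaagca
Ctla2a: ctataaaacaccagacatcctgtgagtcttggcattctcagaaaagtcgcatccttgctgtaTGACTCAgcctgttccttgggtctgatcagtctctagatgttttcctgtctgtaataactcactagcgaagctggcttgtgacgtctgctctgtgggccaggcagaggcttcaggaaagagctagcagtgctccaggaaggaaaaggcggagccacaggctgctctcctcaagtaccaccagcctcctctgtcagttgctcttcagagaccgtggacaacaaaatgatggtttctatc
Ccr3: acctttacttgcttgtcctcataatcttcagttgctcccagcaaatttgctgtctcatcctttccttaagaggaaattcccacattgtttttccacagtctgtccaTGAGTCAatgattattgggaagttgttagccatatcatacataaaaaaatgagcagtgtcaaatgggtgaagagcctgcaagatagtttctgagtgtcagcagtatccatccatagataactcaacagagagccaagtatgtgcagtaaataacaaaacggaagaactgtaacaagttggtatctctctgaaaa
Pcsk1: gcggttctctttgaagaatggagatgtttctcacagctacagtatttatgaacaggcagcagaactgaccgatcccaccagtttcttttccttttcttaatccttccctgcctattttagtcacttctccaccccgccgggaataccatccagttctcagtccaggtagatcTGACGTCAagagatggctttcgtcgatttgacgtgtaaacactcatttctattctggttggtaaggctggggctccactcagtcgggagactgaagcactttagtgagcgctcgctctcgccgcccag

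Among the lowest well-measured protein-coding genes were a growth factor binding protein, a Notch target and several surface receptors. Igfbp4, which encodes a binding protein of insulin-like growth factors, stood at 4.72, 3.5 and 3.33 CPM in bone and at 40.4 to 91.2 CPM (median 50.7) in spleen (log2 fold change -3.61 ± 0.40, adjusted p = 3.8e-06). Dtx1, a ubiquitin ligase gene and a target of Notch signalling, had 26.5, 33.4 and 34.9 CPM in bone, against 176 to 227 CPM (median 210.3) in spleen (-2.78 ± 0.22, adjusted p = 1.8e-08). The receptor gene Gpr83 fell to 15.2, 12.7 and 23.8 CPM in bone, against 108 to 162 CPM (median 129) in spleen. In all 3 genes the groups were far apart, and bone library 3 was the highest bone library for Dtx1 and Gpr83. Tgfbr3, the co-receptor betaglycan, had 0.668, 4.53 and 1.93 CPM in bone, with library 2 well above library 1, and 15.1 to 27.9 CPM (median 19.9) in spleen (-2.97 ± 0.53, adjusted p = 0.00043). St8sia1, a ganglioside synthase gene, fell 4.88-fold, Nsg2, a vesicle protein gene known from neurons, 5.83-fold, and Treml2, a receptor gene of the TREM family, 4.52-fold. Ly6c1, a surface antigen gene with close copies that can share its reads, fell 4.7-fold. The others were Rapgef4, an exchange factor activated by cyclic AMP (4.47-fold lower), the GTPase-activating gene Arhgap20 (4.22-fold), the actin crosslinker gene Actn1 (4.18-fold) and D8Ertd82e, a gene known by its clone symbol (4.24-fold).

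**Figure D2:**
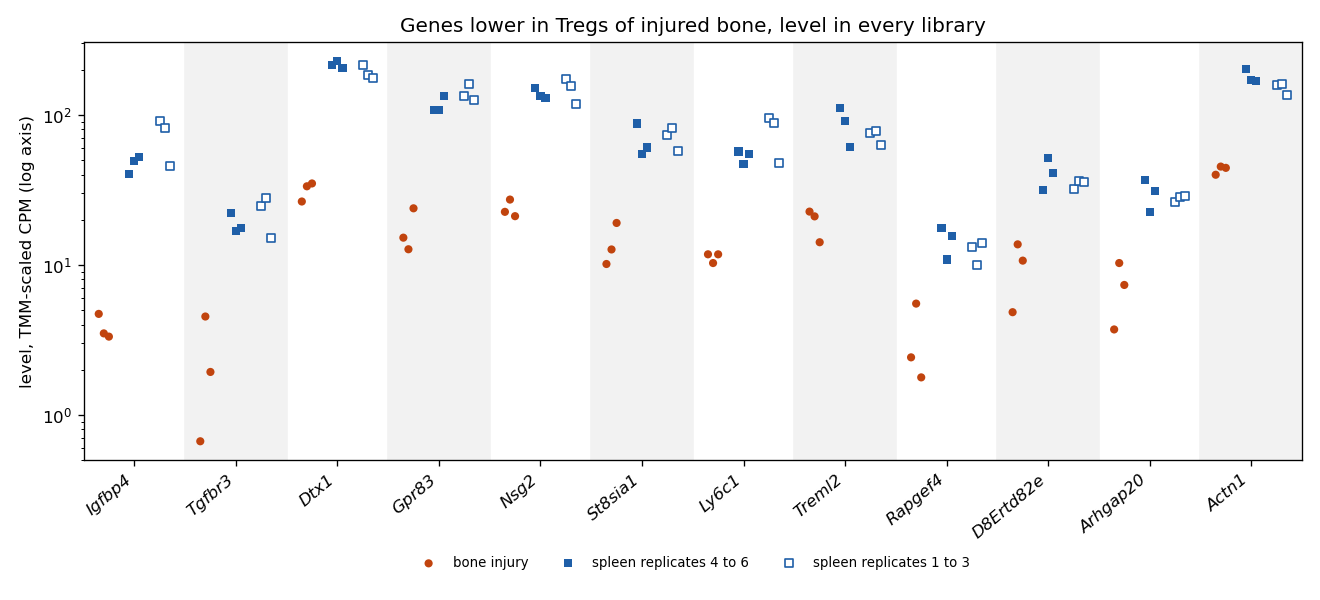
Level of the 12 lowest well-measured genes in every bone and spleen library, as TMM-scaled CPM on a log axis. Each point is 1 library, orange circles for bone (n = 3), filled squares for spleen replicates 4 to 6 and open squares for replicates 1 to 3. For each gene the 3 bone libraries lie below all 6 spleen libraries.

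Genes were then followed by role in 27 lists, whose members differed widely in how they stood in bone. The lists were drawn up with earlier results of these data known, so their counts are partly set by that choice. For comparison, 8.48% of all genes tested rose and 6.32% fell. Of 18 transcription factor genes of effector Tregs, 16 rose and 0 fell (median log2 fold change 1.09). Id2, an inhibitor of E proteins, stood at 346, 295 and 239.7 CPM in bone and 32.3 to 59.6 CPM (median 47.5) in spleen, and Rora, a nuclear receptor of tissue Tregs and type-2 innate cells, at 659, 615 and 559 CPM in bone and 99.7 to 156 CPM (median 115) in spleen. Neither overlapped between the groups, and both had small errors (2.36 ± 0.17 and 2.25 ± 0.17 on the log2 scale, adjusted p = 2.5e-09 and 2.9e-09). Pparg, the lipid-sensing receptor of fat tissue Tregs, was low in every library but separated, with 19.4, 18.1 and 9.75 CPM in bone and 0.645 to 2.34 CPM (median 1.64) in spleen (3.07 ± 0.39, adjusted p = 5.4e-06). Runx2, best known as the master factor of osteoblasts and also used by T cells, stood at 137, 141 and 145 CPM in bone and 26 to 56.6 CPM (median 46.5) in spleen and rose 2.73-fold. Vdr, the vitamin D receptor gene, rose 3.89-fold, Prdm1, which encodes the effector factor Blimp-1, 2.77-fold, and Gata3, the type-2 helper factor, 2.02-fold (adjusted p = 4.6e-05). The 2 that did not pass were Tbx21 (0.38 ± 0.34, adjusted p = 0.53) and Batf.

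Cytokine receptors changed in part. Of 23 genes, 11 rose and 1 fell (median 0.45). Ifngr1, the interferon-gamma receptor gene, stood at 994, 813 and 939 CPM in bone and 199.9 to 228 CPM (median 208) in spleen, with tight libraries on both sides (2.15 ± 0.13, adjusted p = 1.2e-10). The interleukin-18 receptor subunit gene Il18rap had 122, 107 and 106 CPM in bone, against 13.6 to 29.3 CPM (median 18.5) in spleen (5.48-fold, adjusted p = 1.8e-08). Il7r, the receptor of the T cell survival factor interleukin-7, rose 2.67-fold, and Il12rb2, a subunit of the interleukin-12 receptor, rose 5.09-fold from low levels. Il6ra, which binds interleukin-6, was the member that fell (-0.63 ± 0.16, adjusted p = 0.0093), a call lost without bone library 1 (adjusted p = 0.052).

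Among 19 measured genes for secreted suppressive and repair factors, 12 rose and 0 fell (median 1.25). Areg, which encodes amphiregulin, stood at 212, 155 and 119.6 CPM in bone and 3.86 to 32.9 CPM (median 13.3) in spleen (2.82 ± 0.43, adjusted p = 0.00088), and Il10 at 70.1, 70.8 and 56.6 CPM in bone and 2.63 to 20.9 CPM (median 11) in spleen (2.01 ± 0.35, adjusted p = 0.0012). For both genes spleen replicates 4 to 6 were above replicates 1 to 3, and all 6 were below bone. Pdgfb, the growth factor PDGF-B that drives mesenchymal cells, had 12.2, 20.7 and 14.7 CPM in bone and 0.5 to 1.58 CPM (median 0.842) in spleen (4.01 ± 0.40, adjusted p = 2.1e-07). The Notch ligand gene Jag1 rose 8.55-fold, Metrnl, a secreted factor linked to fat and immune metabolism, 10.5-fold, and Fgl2, a fibrinogen-like effector of Tregs, 8.35-fold. Tff1, a trefoil peptide of mucosal repair, had 10.9, 11.6 and 3.64 CPM in bone and only 2 counts over all 6 spleen libraries. The ratio of its scaled counts was 308 (95% interval 85.0 to 2552, exact, counting error only). Tgfb1, a central suppressive cytokine gene, rose 1.42-fold and Penk, the enkephalin precursor gene, 1.6-fold.

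Of 8 helper cytokine genes that could be tested, out of 14, 1 rose and 2 fell. Over all genes tested these shares were 8.48% and 6.32%. Il17a had 2.55, 3.02 and 1.7 CPM in bone (159 counts) and 0 counts in every spleen library, so that it was at least 51.4-fold higher in bone (taking 3 counts as the floor for the spleen group). The type-2 cytokine gene Il13 had 5.97, 1.63 and 1.78 CPM in bone, where library 1 stood above the others, and 0 to 0.885 CPM (median 0.162) in spleen. It did not pass (adjusted p = 0.12). Tnf, the tumor necrosis factor gene, stood at 11.9, 12 and 13.9 CPM in bone and 20.5 to 34.7 CPM (median 27.1) in spleen, and its neighbour Lta, the lymphotoxin gene, at 7.18, 4.09 and 5.49 CPM in bone and 14.6 to 22.3 CPM (median 20.9) in spleen. Both fell without overlap, 2.35-fold (adjusted p = 0.00036) and 3.36-fold (adjusted p = 0.00024).

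Of 25 genes for ligands and receptors of signals that act on bone cells, 13 could be tested. Of these 13, 3 rose and 0 fell (median 0.22), where 8.48% of all genes tested rose and 6.32% fell. RANKL (Tnfsf11), which osteoclasts need, had 28, 26.7 and 18.2 CPM in bone and 21.7 to 52.8 CPM (median 30.9) in spleen. These libraries overlapped, and the difference did not pass (-0.68 ± 0.25, adjusted p = 0.077). Csf1, the macrophage and osteoclast growth factor gene, overlapped too, with 40, 35 and 35.1 CPM in bone and 21.7 to 47 CPM (median 30) in spleen (0.17 ± 0.24, adjusted p = 0.7). Tnfrsf11a, which encodes the receptor RANK, was near the limit of detection, at 39 counts over the bone libraries and 7 over the spleen libraries (adjusted p = 0.081). The 3 that rose were Cd80, a ligand of CTLA-4 and CD28, Acvr2a, an activin receptor gene, and Sema4d, a semaphorin that restrains osteoblasts when made by osteoclasts. Cd80 stood at 29, 27.7 and 12.5 CPM in bone, with library 3 lowest, and at 5.29 to 6.63 CPM (median 5.7) in spleen (1.89 ± 0.25, adjusted p = 8.1e-06). Acvr2a had 18.9, 20.4 and 16.1 CPM in bone and 5.27 to 10.1 CPM (median 8.78) in spleen (1.22 ± 0.25, adjusted p = 0.0012). Sema4d rose 1.43-fold (adjusted p = 0.013), a call lost without bone library 1 or spleen replicate 4 (adjusted p = 0.054 and 0.06).

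**Figure D3:**
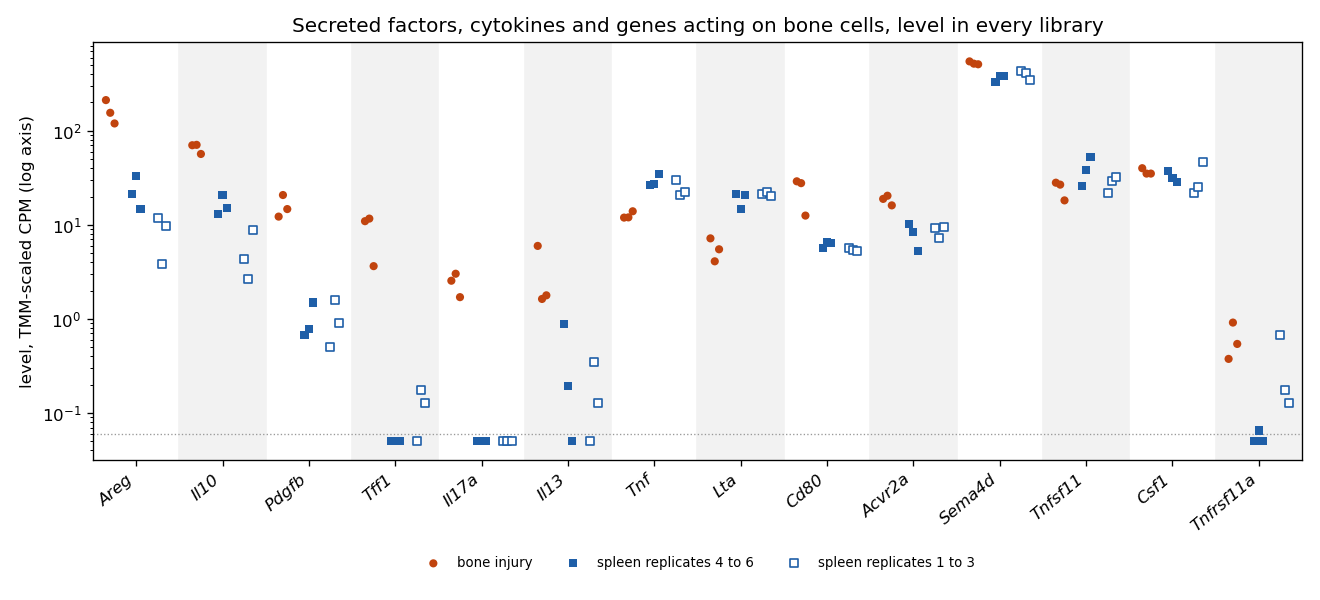
Level of secreted factors, cytokines, and ligands and receptors of signals that act on bone cells, in every bone and spleen library, as TMM-scaled CPM on a log axis. Each point is 1 library, orange circles for bone (n = 3), filled squares for spleen replicates 4 to 6 and open squares for replicates 1 to 3, and points below the dotted line are libraries at 0. Areg, Il10, Pdgfb, Tff1 and Il17a are separated, Tnf and Lta are lower in bone, and Tnfsf11, Csf1 and Tnfrsf11a overlap.

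Chemokine receptors had the highest median of the 27 lists (1.52), with 9 of 15 genes higher in bone and 1 lower. Ccr1, a receptor of inflammatory chemokines, stood at 86.3, 57.5 and 48.8 CPM in bone and 0.34 to 2.32 CPM (median 1.21) in spleen (6.59 ± 0.48, adjusted p = 2.4e-07). Ccr2, the receptor of monocyte chemoattractant proteins, had 732, 589 and 525 CPM in bone and 36 to 89.2 CPM (median 45.5) in spleen (3.96 ± 0.24, adjusted p = 6.1e-10). Cxcr6, the receptor of CXCL16, followed with 92.1, 85 and 69.3 CPM in bone and 3.77 to 7.61 CPM (median 6.29) in spleen (4.15 ± 0.39, adjusted p = 4.3e-06). All 3 were separated, and for Ccr2 and Cxcr6 replicates 1 to 3 were above replicates 4 to 6 within spleen. Ccr3, the eotaxin receptor, rose 9.54-fold, the mucosal homing receptor Ccr6 3.48-fold, Ccr4 2.86-fold and Ccr8, a receptor of tissue Tregs, 2.71-fold. Cxcr4, which binds the marrow chemokine CXCL12, had 351, 267 and 312 CPM in bone and a wide range in spleen, 70.5 to 231 CPM (median 99.4) (0.82 ± 0.23, adjusted p = 0.024). Cxcr5, the receptor that draws cells to B cell follicles, fell (-1.64 ± 0.44, adjusted p = 0.024). That call was lost without bone library 1 or 2 or without spleen replicate 5 or 6 (adjusted p of up to 0.088). Ccr7, the receptor for entry to lymph nodes, stood at 67.9, 70.9 and 78.1 CPM in bone and 107 to 295 CPM (median 150.1) in spleen. Its groups did not overlap, but it did not pass the test (-0.93 ± 0.43, adjusted p = 0.2).

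Homing and adhesion genes changed in both directions. S1pr1, the receptor that lets T cells leave lymphoid organs, and its regulator Klf2 overlapped, S1pr1 at 390.4, 362 and 385 CPM in bone and 289 to 558 CPM (median 407) in spleen (adjusted p = 0.86 for S1pr1 and 0.15 for Klf2). Of 9 genes of lymphoid exit, 1 rose (P2ry10, a lysophospholipid receptor gene, 1.98-fold) and 2 fell. The shares over all genes tested were 8.48% that rose and 6.32% that fell. Integrins and adhesion genes rose in 9 of 18 cases and fell in 2 (median 0.61). Itgav, the integrin subunit that activates latent TGF-beta, stood at 508, 467 and 468 CPM in bone and 145 to 214 CPM (median 163) in spleen (1.47 ± 0.18, adjusted p = 4.2e-06). Its partner Itgb3 rose 3.07-fold, the collagen receptor subunit Itga2 3.83-fold, the epithelial retention integrin Itgae 3.6-fold and the hyaluronan receptor Cd44 3-fold. Itga6, a laminin receptor subunit, fell 1.86-fold (adjusted p = 2e-05).

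Of 20 proteases and matrix genes tested, 8 rose and 1 fell (median 0.37). Pcsk1 (chromosome 13, 75089826 to 75134861), the prohormone convertase PC1/3 that cleaves peptide hormone precursors such as proenkephalin, had 108, 99.3 and 53.8 CPM in bone, or 5785 counts in all. In spleen it was at 0.0681 to 1 CPM (median 0.318), or 21 counts in all. The log2 fold change was 9.01 ± 0.63 (adjusted p = 4.2e-07). It rests on few spleen counts and ranged over 7.94 to 9.65 between alternative analyses. Mmp9, a gelatinase gene, had 45.8, 39.1 and 36.7 CPM in bone and 1.77 to 6.84 CPM (median 5.3) in spleen (3.35 ± 0.49, adjusted p = 0.00022). The membrane protease Mmp25 rose 16.4-fold, the sheddase Adam8 12-fold and Furin, which activates TGF-beta and many other precursors, 2.89-fold.

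Inhibitory receptors and costimulatory genes were split. Havcr2, the inhibitory receptor TIM-3, stood at 74.2, 59.5 and 45.9 CPM in bone and 1.75 to 5.07 CPM (median 2.62) in spleen (4.13 ± 0.29, adjusted p = 7e-09). Klrg1, a marker of terminal effector Tregs, had 327, 254 and 198 CPM in bone and 26.3 to 62.5 CPM (median 40.5) in spleen (3.17 ± 0.22, adjusted p = 3.4e-09), while the checkpoint receptor gene Pdcd1 (PD-1) rose 3.32-fold and Tigit 2.12-fold. In the other direction Btla fell 1.65-fold, Cd96 1.73-fold and Cd200 2.55-fold, so that of 14 genes tested 7 rose and 3 fell. In the TNF receptor and costimulation list 6 of 16 rose and 3 fell. Tnfrsf9, the receptor 4-1BB, had 601, 444 and 408 CPM in bone and 87.2 to 133 CPM (median 129) in spleen (2.09 ± 0.17, adjusted p = 1.2e-08), Icos rose 3.5-fold and Tnfrsf4 (OX40) 2.32-fold, while Cd40lg, the ligand that helps B cells, fell 1.87-fold. Of 12 granule and cytotoxic genes 4 rose and 0 fell, among them Gzmb and Gzmc, a further granzyme gene, while Nkg7, a granule membrane gene, stood at 22.9, 13.8 and 18.9 CPM in bone and 11.6 to 17.3 CPM (median 14.1) in spleen (adjusted p = 0.22).

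NF-kB subunits and feedback genes rose in 11 of 18 cases and fell in 0 (median 0.53), led by Bcl3 (2.6-fold), the adaptor Traf1 (2.1-fold) and the subunit gene Nfkb2 (1.96-fold). AP-1 and early response genes rose in 10 of 21 cases and fell in 2 (median 0.66). Fosl2, an AP-1 subunit gene, stood at 556, 473 and 378 CPM in bone and 13.9 to 94 CPM (median 56) in spleen, where replicates 4 to 6 exceeded replicates 1 to 3 (2.53 ± 0.29, adjusted p = 1.7e-05). Crem, a modulator of the cyclic AMP response, had 303, 233 and 221 CPM in bone and 25.1 to 61.1 CPM (median 43.4) in spleen (2.34 ± 0.19, adjusted p = 1.2e-08). Nr4a1, an orphan receptor gene induced by T cell receptor signals, had 721, 631 and 655 CPM in bone and 83.7 to 294 CPM (median 168) in spleen (2.8-fold). Myc, in contrast, was at 57.6, 46.9 and 45.7 CPM in bone and 78.9 to 141 CPM (median 106) in spleen and fell 2.46-fold (adjusted p = 2.4e-06). Of 17 T cell receptor signalling genes 1 rose and 1 fell (median -0.16), where 8.48% of all genes tested rose and 6.32% fell. The number lower in this list ranged over 0 to 3 between alternative analyses, with 3 on spleen replicates 4 to 6 only.

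Feedback regulators of MAP kinase and G protein signals moved both ways, with 4 of 14 higher and 3 lower. Over all genes tested 8.48% were higher and 6.32% lower. Gem, a small GTPase gene induced on activation, had 153, 151 and 118 CPM in bone and 6.66 to 26.6 CPM (median 15.3) in spleen (2.63 ± 0.20, adjusted p = 5.6e-09), while Rgs10 fell 2.62-fold and the ERK phosphatase gene Dusp6 2.12-fold. Heat shock and chaperone genes had a median of -0.91, with 1 of 12 higher and 3 lower, but the number lower ranged over 1 to 10 between alternative analyses. The inducible heat shock gene Hspa1b varied over 1.07 to 387 CPM within spleen, with replicates 3, 4 and 5 high, against 24.2, 26.9 and 16.2 CPM in bone (adjusted p = 0.42). Hspe1, the mitochondrial co-chaperonin gene, fell 2.79-fold (adjusted p = 0.0027).

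Among 23 genes of glycolysis and hypoxia 16 rose and 0 fell (median 0.94). Egln3, a prolyl hydroxylase that senses oxygen, stood at 74.2, 49 and 59.1 CPM in bone and 4.9 to 8.47 CPM (median 6.55) in spleen (3.08 ± 0.23, adjusted p = 2.9e-09). Slc16a3, the lactate exporter MCT4, had 54.2, 35 and 43.3 CPM in bone and 6.13 to 11.7 CPM (median 9.49) in spleen (2.21 ± 0.23, adjusted p = 4.8e-07). Ndrg1, a hypoxia-induced gene, rose 5.75-fold, Bnip3, a mitophagy gene, 3.83-fold, the glycolytic enzyme gene Tpi1 3.61-fold and the lactate dehydrogenase gene Ldha 1.77-fold. The letters ACGTG, the core of the hypoxia response element, were found in the promoter windows of 13 of the 17 list genes with an entry (76.5%), against 29.5% of all 8151 tested genes with an entry and 28.7% of those that rose. Of 14 redox genes 3 rose and 1 fell, where 14.8% of all genes tested changed in either direction, with the metallothionein gene Mt1, a binder of zinc and copper, at 34.3, 42 and 33.8 CPM in bone and 0.52 to 2 CPM (median 0.8) in spleen (5.69 ± 0.44, adjusted p = 1.7e-08). Of 17 lipid genes 2 rose and 1 fell, and the 2 that rose are both for the last step of triglyceride synthesis. Dgat2 had 38.1, 42.1 and 34 CPM in bone and 0.142 to 7.02 CPM (median 3.72) in spleen (4.13 ± 0.51, adjusted p = 8.5e-05) and Dgat1 253, 220.4 and 149.5 CPM in bone and 15 to 22.9 CPM (median 19.6) in spleen (3.43 ± 0.20, adjusted p = 8.9e-11). Of 10 transporter genes, most of them for amino acids or lactate, 3 rose and 0 fell, with Slc15a3 as the highest. Over all genes tested 8.48% rose.

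Of 22 lamin, cytoskeleton and membrane scaffold genes 18 rose and 1 fell (median 1.41). Vim, which encodes the intermediate filament vimentin, stood at 2841, 2316 and 2019 CPM in bone and 405 to 603 CPM (median 499.7) in spleen (2.26 ± 0.18, adjusted p = 9.1e-09). Anxa1, the annexin that dampens inflammation, had 41.9, 34.6 and 27.2 CPM in bone and 0.285 to 5.5 CPM (median 2.49) in spleen (5.32 ± 0.35, adjusted p = 6.1e-10). Emp1, a membrane protein gene, rose 13.4-fold, the calcium-binding gene S100a6 4.57-fold and the giant scaffold gene Ahnak 2.93-fold. Actn1 was the member that fell. Cell cycle genes rose in 6 of 20 cases and fell in 0 (median 0.91), and the number higher ranged over 2 to 12 between alternative analyses. The cycle inhibitor Cdkn1a, which encodes p21, was the highest of them, at 37.6, 39.9 and 30.9 CPM in bone and 0.702 to 4.62 CPM (median 2.45) in spleen (3.43 ± 0.29, adjusted p = 1.5e-08), while the proliferation marker Mki67 had 563, 581 and 630.1 CPM in bone and 24 to 364 CPM (median 205) in spleen, of which replicates 1 and 2 were far below the rest (adjusted p = 0.35).

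**Figure D4:**
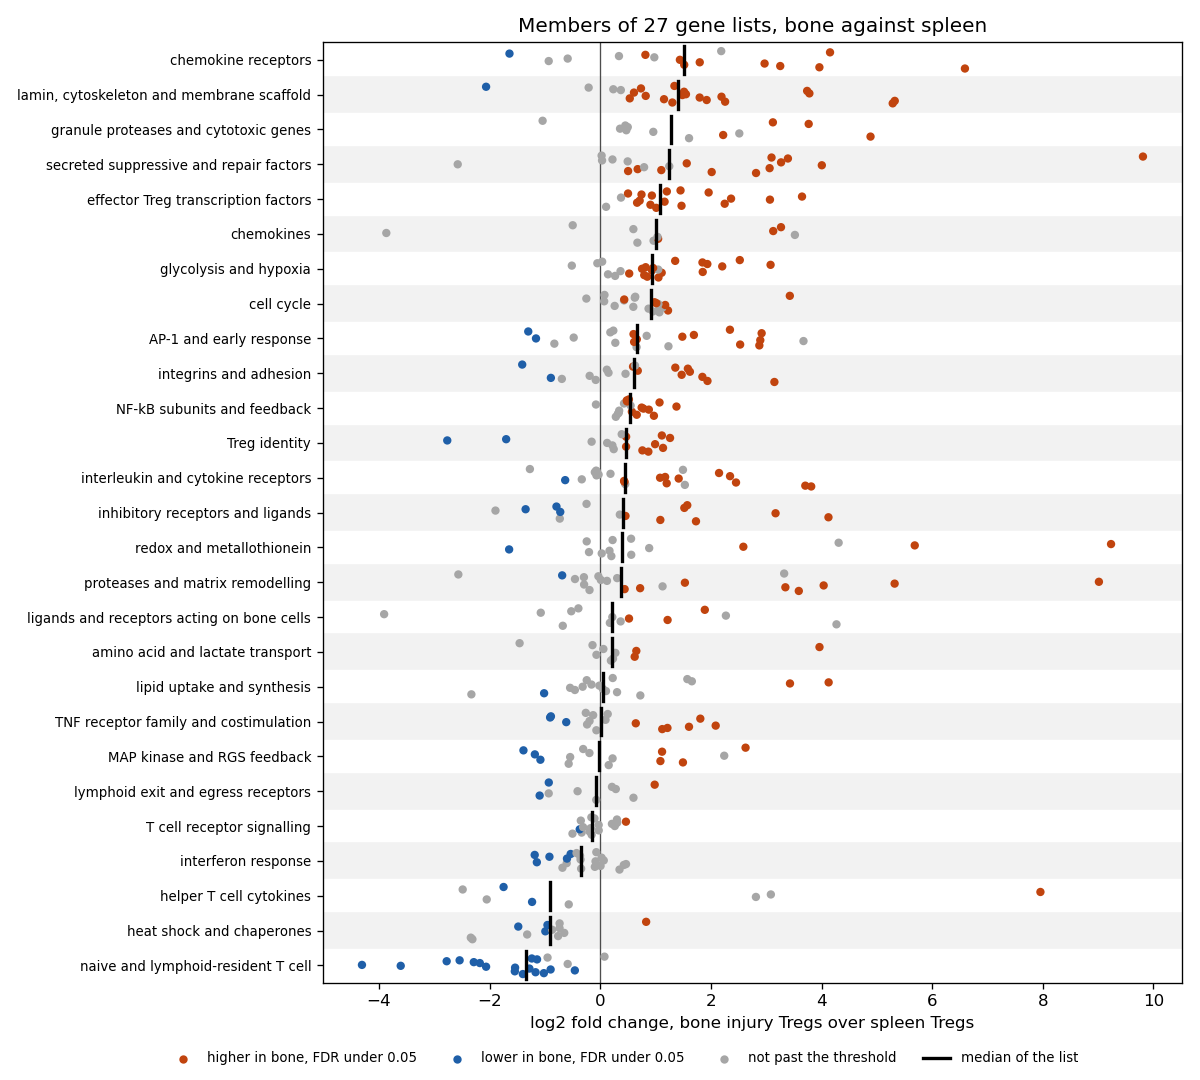
Log2 fold change of bone over spleen for every tested member of 27 gene lists, with 1 point per gene and a black bar at each list's median. Orange points rose, blue points fell and grey points did not pass an adjusted p of 0.05. The chemokine receptors lie at the top (median 1.52) and the naive and lymphoid-resident genes at the bottom (median -1.34).

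Of 20 genes of naive and lymphoid-resident T cells 17 fell and 0 rose (median -1.34), where 6.32% of all genes tested fell. The list holds Igfbp4, Dtx1, Nsg2, St8sia1, Treml2 and Actn1, which are among the 12 lowest genes named above. Bcl2, Art2b and P2rx7, also members, were among the highest genes of bone against muscle or skin. The counts of this list in all 3 comparisons are therefore partly set by its choice. Tcf7, which encodes the stemness factor TCF-1, stood at 145, 198 and 196 CPM in bone and 344 to 496 CPM (median 434) in spleen (-1.40 ± 0.16, adjusted p = 1.7e-06). Bach2, a repressor that holds T cells in a resting state, had 51.3, 49 and 50.9 CPM in bone and 126 to 166 CPM (median 145) in spleen (-1.54 ± 0.27, adjusted p = 0.00065), and the survival gene Bcl2 73.4, 83.2 and 101 CPM in bone and 203 to 276 CPM (median 223) in spleen (-1.54 ± 0.19, adjusted p = 4.4e-06). In each of these 3 the bone libraries were below every spleen library. The TCF-1 partner Lef1 fell 2.03-fold, the chromatin organiser Satb1 2.25-fold, the quiescence factor Foxp1 1.86-fold and Foxo1 1.37-fold. Of 20 interferon response genes 5 fell and 0 rose (median -0.35), as for Gbp2, a guanylate-binding protein gene, with 63.5, 64.8 and 54.8 CPM in bone and 86.5 to 132 CPM (median 107) in spleen (-0.92 ± 0.15, adjusted p = 0.00014).

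Many of these naive genes were higher in bone than in the other injured tissues. Tregs of a muscle injury (volumetric muscle loss) and of a skin injury (full-thickness punch wounds), each 3 libraries from the same strain, age and day, were used for this. Against muscle, whose libraries share the naming style of bone, 759 genes of 15617 (4.86%) differed, 402 higher in bone (2.57%) and 357 lower (2.29%). The libraries did not overlap for 23.7% of genes, 11.4% with bone higher and 12.4% with bone lower, and 20.3% had an unadjusted p under 0.05. Of the 20 naive genes 14 were higher in bone than in muscle and 0 lower, with a median log2 fold change of 1.83 against 0.00 over all genes tested. Bcl2 had 73.4, 83.2 and 101 CPM in bone and 18.2, 12.8 and 16.2 CPM in muscle (2.44 ± 0.20, adjusted p = 3.4e-07), and Tcf7 145, 198 and 196 CPM in bone and 43.7, 34.2 and 57.1 CPM in muscle (2.00 ± 0.17, adjusted p = 3.4e-07). For both genes bone lay between muscle and spleen without overlap. Among protein-coding genes whose groups did not overlap and whose log2 CPM averaged 3 or more, the highest above muscle beside Bcl2 were Art2b, an ADP-ribosyltransferase gene whose reads can be shared with a close copy, Nod1, a sensor of bacterial peptidoglycan (2.40 ± 0.32, adjusted p = 0.00029), the nuclear factor gene Aff3, the caspase-recruitment gene Card6 and the tyrosine kinase gene Syk, which B cells use. Syk had 16.4, 32.9 and 26.9 CPM in bone and 9.22, 3.04 and 3.81 CPM in muscle (2.25 ± 0.50, adjusted p = 0.016).

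**Figure D5:**
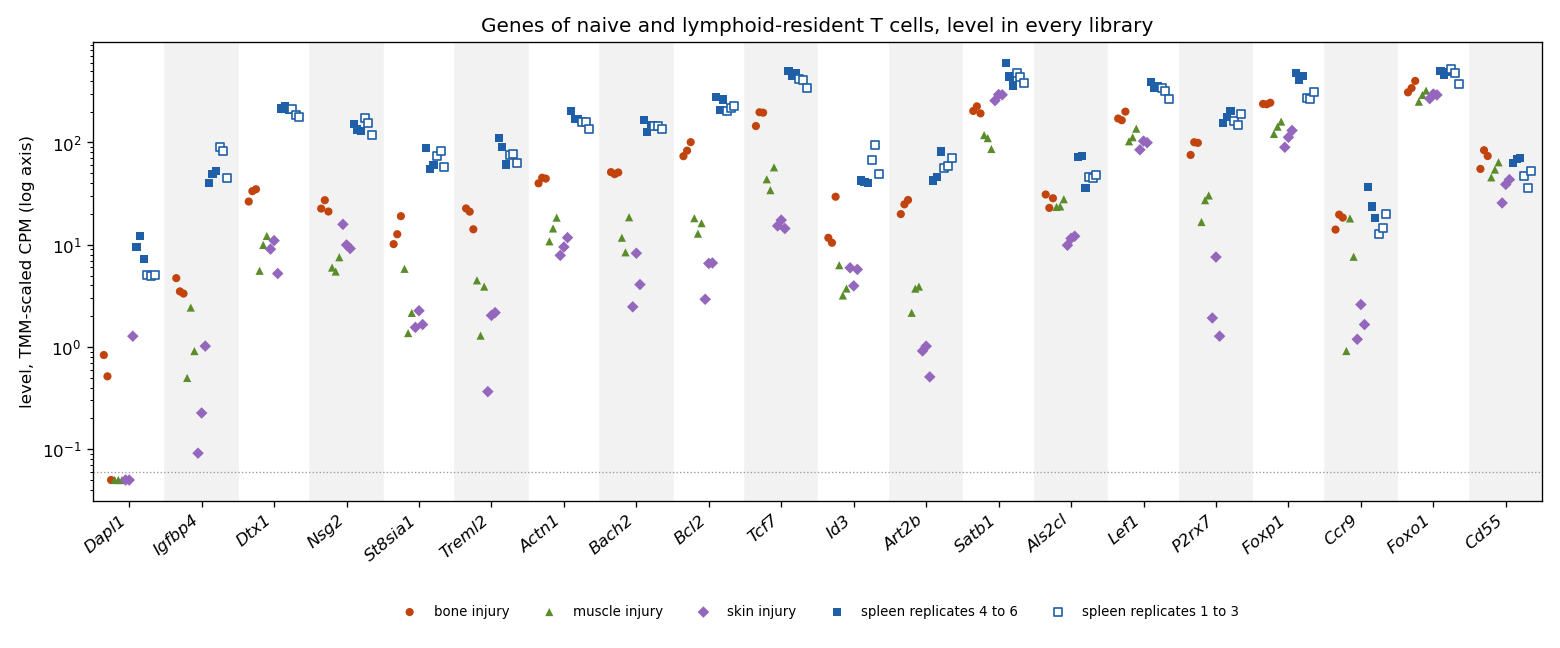
Level of the 20 genes of naive and lymphoid-resident T cells in every bone, muscle, skin and spleen library, as TMM-scaled CPM on a log axis, with points below the dotted line at 0. Each point is 1 library (n = 3 for each injured tissue), filled squares for spleen replicates 4 to 6 and open squares for replicates 1 to 3. For Bcl2, Tcf7 and Bach2 the bone libraries lie above those of muscle and skin and below those of spleen.

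Genes lower in bone than in muscle included type-1 and effector genes. Tbx21, the type-1 helper factor T-bet, had 14.3, 9.81 and 11.8 CPM in bone and 48.1, 35.8 and 22.5 CPM in muscle (-1.57 ± 0.34, adjusted p = 0.0096), and Cxcl10, a chemokine induced by interferon-gamma, 29.3, 21.5 and 33.2 CPM in bone and 103, 70.4 and 91.3 CPM in muscle (-1.66 ± 0.25, adjusted p = 0.00047). Neither overlapped. Nkg7 was 3.43-fold lower in bone (adjusted p = 0.00021), and the mitotic genes Spc25 and Cdca2 were 2.92-fold and 2.83-fold lower. Gp49a, an inhibitory receptor gene with a close copy that can share its reads, was 2.74-fold lower. Of 18 effector transcription factor genes 7 were lower in bone than in muscle and 0 higher, and of 18 NF-kB genes also 7 and 0. Ctla4 was 1.72-fold lower in bone than in muscle (adjusted p = 0.0055) and Dgat1 2.08-fold (adjusted p = 0.0013). Lmna, Gzmb, Il1rl1 and Areg did not pass between bone and muscle, with adjusted p = 0.6, 0.37, 0.18 and 0.073 in that order. The count against muscle fell to 256 genes without bone library 3, to 323 without library 2, and to 464 and 431 without muscle replicate 1 or 2.

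Against skin, 1267 genes (8.11%) differed, 556 higher in bone (3.56%) and 711 lower (4.55%). The libraries did not overlap for 43.0% of genes, 21.2% with bone higher and 21.9% with bone lower, and 23.0% had an unadjusted p under 0.05. All skin libraries carry the naming style of spleen replicates 1 to 3, so these folds also rest on the difference between the spleen styles. They can therefore differ from the ratio of the printed levels, as for Nfil3 and Areg, whose levels lie closer together than their folds. With upper-quartile scaling 54.5% of the genes called were higher in bone, against 43.9% in the main analysis. Of the 20 naive genes 13 were higher in bone than in skin and 0 lower. P2rx7, an ATP-gated channel gene, had 75.5, 101 and 99.1 CPM in bone and 1.92, 7.58 and 1.28 CPM in skin (4.60 ± 0.57, adjusted p = 0.00053). Zfp827, a zinc finger gene, had 29.4, 32.7 and 45.6 CPM in bone and 2.01, 3.28 and 2.04 CPM in skin (3.68 ± 0.32, adjusted p = 2.5e-07). By these folds Nfil3, a basic leucine zipper factor, was the lowest in bone relative to skin among protein-coding genes within the same level and overlap limits. It had 74.7, 61.3 and 47.5 CPM in bone and 299, 299 and 274 CPM in skin (-3.70 ± 0.26, adjusted p = 1.1e-08). Areg stood at 642, 473 and 444 CPM in skin (-3.11 ± 0.63, adjusted p = 0.012), and Mreg, a melanosome transport gene, was 9.22-fold lower in bone. The histone genes Hist1h4a and Hist1h4j, which can share reads with their copies, and the mitotic kinase gene Pbk were also among the lowest, and 12 of 20 cell cycle genes were lower in bone than in skin and 0 higher.

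Markers of other cell types were summed in each library. The 11 B cell and plasma cell markers summed to 68.3 to 93.2 CPM in bone, 8.63 to 13.02 CPM in muscle, 12.9 to 16.4 CPM in skin and 54.9 to 169 CPM in spleen, and none was at 0 in bone. Pax5, which defines B cells, had 10.8, 19 and 26.5 CPM in bone and 2.67 to 30.8 CPM (median 18.8) in spleen and did not pass (adjusted p = 0.71). Against spleen 2 of the 11 fell, Cr2 and Ms4a1, and 0 rose (median log2 fold change -0.52). The share of all genes tested that fell was 6.32%. Against muscle, 5 of 11 B cell markers were higher in bone and 0 lower, and against skin 1 was higher and 0 lower. Of all genes tested, 2.57% were higher in bone than in muscle and 3.56% higher than in skin. The median log2 fold change of the B cell markers was 3.18 against muscle and 2.99 against skin, and 8 of 11 lay above all libraries of each of these 2 tissues. The share of all genes tested that lay above was 11.4% for muscle and 21.2% for skin. The B cell markers moved with the naive genes in both comparisons, and their part in those results was not tested. The osteoblast and osteocyte markers summed to at most 1.39 CPM in bone, with 7 of 11 at 0 in every bone library. Fibroblast markers summed to 409 to 461 CPM in bone and 341 to 468 CPM in spleen, most of it from Thy1, which T cells express. Of the 8 that could be tested 2 rose and 0 fell, with a median log2 fold change of 5.01. The fibronectin gene Fn1 had 9.93, 18.6 and 30.7 CPM in bone and 0 to 4.52 CPM (median 0.915) in spleen (5.91 ± 1.01, adjusted p = 0.0011). The collagen gene Col1a1 had 10.9, 23.1 and 24.4 CPM in bone and 0 to 3.87 CPM (median 1.46) in spleen (4.42 ± 1.05, adjusted p = 0.014). Macrophage markers summed to 22.8 to 31.0 CPM in bone and 24.8 to 45.7 CPM in spleen. The complement gene C1qc had no count in bone and was at least 51.5-fold lower than in spleen (taking 3 counts as the floor for the bone group), and the mannose receptor gene Mrc1 had 6 counts in bone and 378 in spleen. Itgam, the integrin CD11b, moved the other way, with 11.6, 8.5 and 20.1 CPM in bone and 0.854 to 2.32 CPM (median 1.83) in spleen (3.45 ± 0.43, adjusted p = 3.5e-06). Erythroid and platelet markers summed to 0.929 to 5.64 CPM in bone and 5.93 to 35.0 CPM in spleen. Neutrophil markers summed to at most 8.01 CPM in bone and 35.1 CPM in spleen. Of the 5 that could be tested, 1 rose (Ltf, with overlap between the groups) and 0 fell, with a median log2 fold change of -1.65. The osteoclast protease gene Ctsk reached at most 0.709 CPM in bone and 2.49 CPM in spleen. Mmp9, described with the proteases, is also on the osteoclast list.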

How the data were processed

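RNA from sorted Tregs was extracted with the RNeasy Plus Micro kit and made into libraries with the Ovation Solo kit from 1 ng, per the labels' protocols. The submitters' processing notes name STAR, featureCounts, limma and GRCm38, with no versions given in the sources used here. The deposited values are raw counts per gene, used as deposited by the authors. Of the 18 libraries of the series, the 15 of bone, muscle, skin and spleen were fitted together with edgeR 4.0.16 (R 4.3.3), using filterByExpr, TMM scaling, robust quasi-likelihood fits, terms for tissue and naming style, and Benjamini-Hochberg adjustment with a threshold of 0.05. Errors are approximate standard errors of the log2 fold change, derived from that fold change and the F statistic of its quasi-likelihood test. The separate heart table was not used. limma-voom (3.58.1), DESeq2 (1.42.0), other scalings, filters and samples were alternatives. The procedure was tested on simulated data. Sequences and motif shares come from RefSeq promoters of GRCm38.p6, gene positions from GENCODE M21.

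The gene lists and the choice of samples were made with earlier results of these data known. Named genes were the 12 highest and 12 lowest (against muscle and skin, 6 and 6) protein-coding genes past the threshold whose groups did not overlap and whose log2 CPM averaged 3 or more, without clone-named, receptor and immunoglobulin segment, Y-linked and Xist genes, plus list members. Bone and the other injured tissues were pooled by the submitters from 3 mice a library, and since nothing shows whether spleen libraries are separate animals, p-values measure the spread between libraries. The depth of 5970346 to 22635760 counts limits genes with few counts, and intervals and floors cover counting error only. Some genes are not reported here.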

Additional observations from a re-analysis of the deposited data

Results flagged for a closer look

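Of 169 genes named in the text, 11 had a spleen library far from the other 5, by a gap to the nearest one above Dixon's 95% critical value for 6 samples, which chance gives in about 1 in 20 groups. Spleen replicate 1 was the high one for Il1rl1 (82.7 CPM), Itgae (84.9 CPM), Lgals3 (10.3 CPM) and Tnfrsf11a (0.667 CPM). Replicate 3 was high for Ctla2a (19.2 CPM) and Fn1 (4.52 CPM), replicate 4 for Card6 (158 CPM), and replicate 5 for Havcr2 (5.07 CPM) and Jag1 (4.49 CPM). Replicate 4 was low for Tnfrsf9 (87.2 CPM) and replicate 5 for Lta (14.6 CPM).

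The effect against spleen differed between bone and muscle for 50 of these genes (edgeR, adjusted p under 0.05), 26 with a higher and 24 with a lower level in bone, against 759 of all 15617 genes tested (4.86%). The count includes 12 genes that were named because they passed this comparison, so it is partly set by that choice. Both effects use the same spleen libraries, and the values are log2 fold changes of bone over muscle. The higher ones were Actn1 (1.57), Aff3 (2.13), Arhgap20 (1.64), Art2b (2.88), Bach2 (1.97), Bcl2 (2.44), Card6 (2.00), Cd96 (0.86), Cxcr5 (1.92), Dtx1 (1.77), Foxp1 (0.76), Gpr83 (1.91), Il6ra (0.96), Itga6 (0.64), Klf2 (0.68), Lef1 (0.61), Nod1 (2.40), Nsg2 (1.90), P2rx7 (1.89), Pax5 (6.37), Satb1 (0.98), St8sia1 (2.16), Syk (2.25), Tcf7 (2.00), Treml2 (2.59) and Zfp827 (1.39). The lower ones were Adam8 (-0.95), Ccl5 (-0.77), Ccr8 (-1.15), Cd44 (-0.69), Cdca2 (-1.50), Ctla4 (-0.78), Cxcl10 (-1.66), Dgat1 (-1.06), Gp49a (-1.45), Icos (-0.65), Id2 (-0.70), Il18rap (-0.71), Itgav (-0.74), Klrg1 (-0.90), Nfil3 (-1.01), Nkg7 (-1.78), Nr4a1 (-0.81), Penk (-0.79), Rora (-0.78), Runx2 (-0.60), Slc15a3 (-0.67), Spc25 (-1.55), Tbx21 (-1.57) and Tnfrsf4 (-0.71). The fold of Pax5 rests on low counts in muscle.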

How the results depend on the processing

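Against spleen the number of genes called ranged over 1743 (protein-coding genes only, fewer tested) to 2893 (limma-voom), from 2312, and no called gene was called in the opposite direction. With spleen replicates 4 to 6 only it was 2227, sharing 1078 higher and 830 lower genes with the analysis as reported, and 1784 to 2604 without single libraries (1035 to 1479 higher, 720 to 1125 lower). Of 129 called genes followed, 101 kept the call in every alternative that could test them (22, or 21 for Itga6, Tnfrsf8, Dapl1 and Slc1a5). The other 28 lost it in at least 1, among them Plau, which 18 alternatives could test.

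Deviations were compared between samples with the same number in their library names (9175 genes). They correlated at r = -0.035, -0.021 and 0.058 between bone and spleen replicates 4 to 6. Between bone and spleen replicates 1 to 3 the values were 0.138, -0.043 and 0.073. With so few libraries such correlations cannot show whether bone and spleen were paired, and the replicate block served only as an alternative. With the replicate block 2259 genes were called against spleen, and 2080 with the block on bone and spleen replicates 4 to 6 alone, a setting chosen after seeing the data.

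Against muscle the count moved to 432 (261 higher, 171 lower) with naming style left out, 1270 (625 and 645) with DESeq2 and 1191 (605 and 586) with no filter on low counts. Without single libraries it ranged over 256 to 680 (higher 171 to 349, lower 85 to 331), the lowest without bone library 3. Against skin it moved to 2814 (1368 and 1446) with naming style left out and 843 (352 higher) with limma-voom, and ranged over 842 to 1167 without single libraries (higher 350 to 515, lower 453 to 652). With upper-quartile scaling the share higher in bone was 61.9% against muscle, from 53.0%, and 54.5% against skin, from 43.9%. The cause of these shifts was not tested.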

Other observations

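Some genes used as markers of other cells were higher in bone. Kit, the stem cell factor receptor gene, stood at 14.1, 13.5 and 10.6 CPM in bone and 0.0712 to 2.15 CPM (median 1.69) in spleen (3.29 ± 0.55 on the log2 scale, adjusted p = 0.00021, edgeR), while the 7 other mast cell and basophil markers had no count in any bone library. Hlf, a transcription factor gene of blood progenitors, had 28.1, 31.9 and 12.9 CPM in bone and 2.28 to 10.3 CPM (median 4.91) in spleen (2.03 ± 0.45, adjusted p = 0.0068). Of 4 progenitor markers that could be tested 2 rose and 0 fell (median log2 fold change 1.70), and the 9 in the list summed to 32.3 to 52.4 CPM in bone, 66.6 to 79.0 CPM in muscle, 54.9 to 82.4 CPM in skin and 5.26 to 11.3 CPM in spleen. Klrc1, which encodes the lectin receptor NKG2A, had 3, 2.86 and 4.57 CPM in bone and 0 to 0.387 CPM (median 0.181) in spleen (5.49 ± 0.75, adjusted p = 1.3e-05). Its list of 10 CD8 T and NK cell markers summed to 38.6 to 42.8 CPM in bone and 28.7 to 49.3 CPM in spleen. Of 10 chemokine genes tested 3 rose (Cxcl16, Cxcl2 and Ccl5) and 0 fell, where 8.48% of all genes tested rose. Cxcl16, the ligand of Cxcr6, was low, at 3.38, 1.83 and 1.47 CPM in bone and 0 to 0.526 CPM (median 0.36) in spleen, and its call was lost with only bone and spleen libraries (adjusted p = 0.071), with spleen replicates 4 to 6 only (0.1) and with the replicate block on those (0.16).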
